A study of Homo sapiens with 48 samples.

Results

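The comparison described here is that of cells treated with an siRNA against UPF1 (siUPF1) with cells treated with a non-targeting siRNA (siNT), in the line that carries CLIP-tagged wild-type UPF1, called WT. It rests on 3 siUPF1 and 3 siNT libraries, 6 of the 48 libraries of the series. The cells were Flp-In 293 T-REx, a derivative of the human embryonic kidney line HEK293 with a single landing site for transgenes, and the endogenous UPF1 gene was present in every line. Each line had been reverse-transfected with 40 nM of either siRNA and harvested after 72 h, and total RNA depleted of ribosomal RNA was sequenced. The line CLIP, with the tag and no UPF1, was used for comparison, as were the lines GA-KH, E797R, A546H, R843C, K498A and DE636AA, which express CLIP-UPF1 with the changes that their names give. Each of these had 3 siUPF1 and 3 siNT libraries too. Triplicates are biological replicates by the design text of the series.

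UPF1 is an RNA helicase and the central factor of nonsense-mediated mRNA decay (NMD), which degrades transcripts with premature stop codons and a set of normal ones. SMG1 phosphorylates UPF1, UPF2 and UPF3B bind it, and SMG5 and SMG6 lead the marked transcript to decay. Several NMD factors are themselves encoded by NMD substrates, so their mRNAs rise when the pathway is impaired. An siRNA is loaded into an Argonaute protein, whose guide strand pairs with its target along its length. Guide strands can also lower transcripts that match only bases 2 to 8 of the guide, mostly in the 3′ untranslated region (3′ UTR).

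WT siUPF1 libraries held 21.3 to 38.5 M expected counts and WT siNT libraries 29.1 to 32.3 M. All mitochondrially encoded genes, those with a symbol that starts with MT-, took 1.89 to 2.64% of counts in WT siUPF1 and 1.93 to 2.45% in WT siNT. All 8 marker genes of HEK293 cells reached 1 CPM, and 10 of 15 listed markers of other cell types stayed under 1 CPM in all 6 libraries. The summed level of those 15 markers was 105, 107 and 119 CPM with siUPF1, against 102, 103 and 109 CPM with siNT, most of it from EPCAM. Without EPCAM it was 17.6, 18.4 and 23.7 CPM with siUPF1, against 15.1, 17.1 and 16.3 CPM with siNT. COL3A1, a fibroblast collagen, ranged from 7.77 to 13.4 CPM with siUPF1, against 3.99 to 4.71 CPM with siNT, and the epithelial cadherin CDH1 from 2.78 to 3.41 CPM with siUPF1, against 5.11 to 5.95 CPM with siNT. Their part in the results was not tested. The third siUPF1 library stood somewhat apart: its counts differed from those of the other siUPF1 libraries with a chi-square per degree of freedom of 35.3 and 36.3, against 10.7 between those other libraries and 7.35 to 9.30 between siNT libraries. The second CLIP siUPF1 library stood apart from its group, with a mitochondrially encoded share of 0.631%, where the other two had 2.13 and 2.32%. In RNA from whole cultures, fewer cells that express a gene and less RNA per cell cannot be told apart.

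The targeted gene hardly differed in total level in WT. UPF1 stood at 4328, 4348 and 5857 CPM, counts scaled to the library total, in the siUPF1 libraries, against 5188, 5033 and 5639 CPM in the siNT libraries, with transgene and endogenous reads counted together. The groups overlapped, and the log2 fold change, siUPF1 over siNT as throughout, was -0.13 (SE 0.16, adjusted p = 0.62 in edgeR's quasi-likelihood test with Benjamini-Hochberg adjustment over all genes, the test behind every adjusted p here). In CLIP, where reads of UPF1 come from the endogenous gene, it stood at 18.2, 36.8 and 17.7 CPM with siUPF1, against 104.9, 106.5 and 112.8 CPM with siNT, a log2 fold change of -2.17. The responses of WT and CLIP differed by 2.04 (SE 0.23, adjusted p = 4.0e-08). The second CLIP siUPF1 library kept more UPF1 than the other two.

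Transcripts commonly used as NMD readouts mostly did not move in WT. A gene was called at an adjusted p under 0.05. Of all 19129 genes tested, 14% were called higher and 13.3% lower in WT siUPF1, and 25.1% higher and 22.3% lower in CLIP siUPF1. Of 15 NMD targets, 2 were called higher and 0 lower in WT, with a median log2 fold change of 0.01, where all 15 were called higher in CLIP with a median of 1.09. ATF4, the transcription factor of the integrated stress response, had a log2 fold change of 0.11 (SE 0.08, adjusted p = 0.35) in WT and 0.80 in CLIP. The processed transcript RP9P had 0.01 (SE 0.15, adjusted p = 0.97) in WT and 2.28 in CLIP. The test of WT response minus CLIP response called 3.77% of all genes above CLIP and 8.08% below it, and all 15 targets were among those below, 12 of them in a fit to the libraries of WT and CLIP alone and 13 without the second CLIP siUPF1 library. With the replicate number as a block, which pairs same-numbered libraries, 2 targets were called lower in WT. Without the second CLIP siUPF1 library all 15 were called higher in CLIP, with a median of 1.02.

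The exceptions were ARC and BAG1. ARC, an immediate early gene whose mRNA is a known NMD substrate, reached 9.34, 9.50 and 16.9 CPM with siUPF1, against 3.77, 5.15 and 4.35 CPM with siNT. BAG1, a co-chaperone of HSP70 proteins, reached 85.2, 89.6 and 129 CPM with siUPF1, against 46.1, 50.1 and 54.8 CPM with siNT. In both genes the siUPF1 libraries lay above every siNT library, the third siUPF1 library highest. Their log2 fold changes were 1.41 (SE 0.29, adjusted p = 0.00028) and 1.00 (SE 0.14, adjusted p = 9.1e-07) in WT, and 2.78 and 2.30 in CLIP, differences of -1.38 (adjusted p = 0.022) and -1.30 (adjusted p = 1.1e-05).

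Of 9 NMD factors other than UPF1, the mRNAs of 1 were called higher and of 2 lower in WT, where CLIP had 8 higher and 0 lower. With the replicate number as a block 4 were called lower in WT. SMG5, an adaptor for decay of the marked transcript, stood at 132, 147 and 164 CPM with siUPF1, against 170, 189 and 191 CPM with siNT, a log2 fold change of -0.31 (SE 0.10, adjusted p = 0.016). This call was lost without the first or the second siUPF1 library or the second or the third siNT library, with -0.24 to -0.30 and adjusted p = 0.055 to 0.11. In CLIP the same gene had 0.96. SMG9, a partner of the SMG1 kinase, had -0.34 (adjusted p = 0.0014) in WT and 0.83 in CLIP. UPF3A, a paralog of UPF3B, was called higher in both lines, with 0.31 (adjusted p = 2.2e-05) in WT and 0.65 in CLIP. The kinase SMG1 had 0.01 (SE 0.08) in WT and 1.52 in CLIP. For 8 of the 9 factors the WT response was called below that of CLIP. Among 17 non-coding hosts of small nucleolar RNAs, many of which are NMD substrates, 3 were called higher in WT (SNHG16, SNHG17 and SNHG10, at 0.40, 0.38 and 0.36) and 0 lower, and 14 were called higher in CLIP. Only SNHG17 and SNHG10 of those 3 were also called higher in CLIP. Without the third WT siUPF1 library only SNHG16 was called, with SNHG17 at 0.21 (adjusted p = 0.18) and SNHG10 at 0.15 (adjusted p = 0.38). SNHG10 also missed the threshold without the first (adjusted p = 0.097) or the second siNT library (adjusted p = 0.11).

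**Figure D1:**
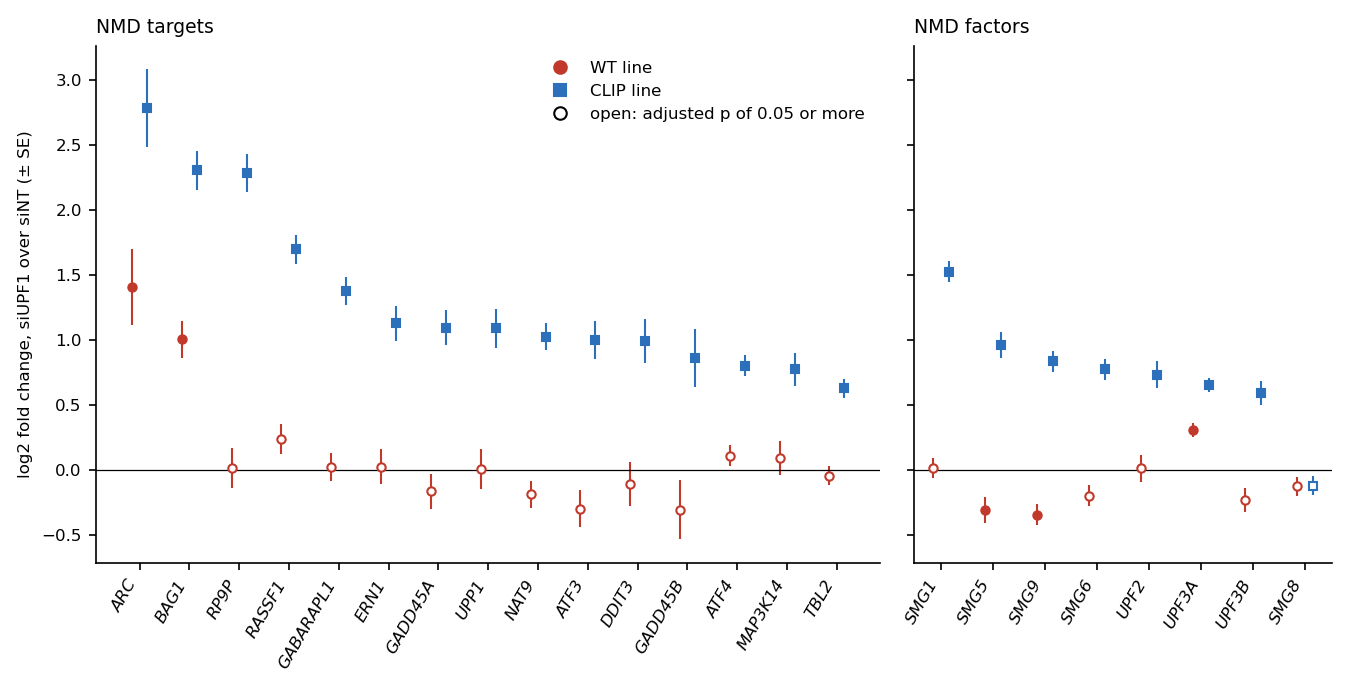
Log2 fold change, siUPF1 over siNT, with its SE (bars) for 15 NMD targets (left) and 8 of the 9 NMD factors tested (right) in WT (circles) and CLIP (squares), where open symbols had an adjusted p of 0.05 or more. The WT values lie near 0 apart from ARC and BAG1, while all 15 targets and 7 of the 8 factors plotted were called higher in CLIP.

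Against this, 27.2% of all genes were called in WT, 5211 in number, with 2670 higher and 2541 lower. The median size of a called change was 0.53 on the log2 scale. At least 2-fold changes were seen in 309 of the higher and 608 of the lower genes, and in 4951 of the 5211 the 3 siUPF1 libraries did not overlap the 3 siNT libraries, which held for 40.5% of all genes tested. Each line has siNT libraries of its own, so the responses of the lines share no control library. Of the genes called in WT, 3775 (72.4%) were called in the same direction in CLIP, which is 41.6% of the 9066 genes called in CLIP. Without the second CLIP siUPF1 library 7864 genes were called in CLIP, and 3728 (71.5% of those called in WT) in the same direction. Another 1299 (24.9%) were not called in CLIP and 137 (2.63%) were called in the opposite direction. Shares called in the same direction in the other lines were 80.9% in E797R, 79.0% in GA-KH, 73.9% in A546H, 71.4% in R843C, 66.2% in K498A and 65.0% in DE636AA. A core of 2102 genes (40.3%; 1099 higher and 1003 lower) was called in the same direction in WT and in all 7 other lines, and 196 (3.76%) in WT alone, which is a count of calls and not a test of a difference between lines.

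Genes are named by size of the change, 14 in each direction, among called genes that averaged 5 CPM or more and whose siUPF1 and siNT libraries did not overlap. All 28 were called in the same direction in all 7 other lines. Among the 14 higher genes were proteins of the endoplasmic reticulum (ER), the lysosome and the nucleus. SRPR, the subunit of the signal recognition particle receptor that docks ribosomes at the ER, reached 164, 185 and 120 CPM with siUPF1, against 47.1, 49.4 and 42.9 CPM with siNT (log2 fold change 1.75, SE 0.13, adjusted p = 3.8e-13). MCOLN1, a cation channel of the lysosome, reached 13.7, 14.2 and 13 CPM with siUPF1, against 4.87, 4.78 and 4.24 CPM with siNT (1.56, SE 0.13, adjusted p = 1.4e-11). These 3 siUPF1 values of MCOLN1 lay close together and were about as far from siNT as in CLIP, which had 1.67.

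ENPP5, of the ectonucleotide pyrophosphatase family, had the largest value of this set, with 26.7, 25.8 and 8.87 CPM with siUPF1, against 4.87, 5.02 and 4.65 CPM with siNT (2.09, SE 0.35, adjusted p = 1.2e-05). The third siUPF1 library of this gene lay far below the other two, though above every siNT library, as the rule required. NR6A1, an orphan nuclear receptor, had a like spread, at 113, 118 and 53 CPM with siUPF1, against 30.5, 32.1 and 23.7 CPM with siNT (1.72, SE 0.26). CELF2, an RNA-binding regulator of splicing, reached 84.3, 84.8 and 64.2 CPM with siUPF1, against 25.3, 24.8 and 25.6 CPM with siNT (1.63, SE 0.13). In contrast, the third siUPF1 library was the highest in WDR18, a WD-repeat protein of a complex in ribosome maturation, with 63.0, 66.0 and 88.0 CPM with siUPF1, against 21.8, 24.3 and 28.5 CPM with siNT (1.54, SE 0.17).

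HOXA7, a homeobox transcription factor, reached 27.2, 30.5 and 26.0 CPM with siUPF1, against 9.85, 10.4 and 9.23 CPM with siNT (1.51, SE 0.12). VAV1, a guanine nucleotide exchange factor known from blood cells, reached 8.09, 8.45 and 9.15 CPM with siUPF1, against 2.57, 2.93 and 2.17 CPM with siNT (1.74, SE 0.15). RAI2, induced by retinoic acid, reached 22.6, 24.8 and 24.1 CPM with siUPF1, against 7.45, 6.75 and 6.11 CPM with siNT (1.81, SE 0.14). The deubiquitinase JOSD2 (1.82), the metallopeptidase LMLN (1.67), the membrane progestin receptor PAQR6 (1.66), STMND1 (1.64) and TMEM243 (1.62) made up the rest. Exons of SRPR, LMLN, PAQR6, TMEM243, MCOLN1 and HOXA7 overlap those of other genes, and the strand setting of the counting is not given in the sources used here, so their counts are uncertain.

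The 14 lower genes had larger changes. PRDX3, the peroxiredoxin of the mitochondrial matrix that removes hydrogen peroxide, fell to 12.7, 13.2 and 21.8 CPM with siUPF1, against 115, 103 and 116 CPM with siNT (-2.82, SE 0.23, adjusted p = 6.1e-12), and had -3.42 in CLIP. DSP, desmoplakin of the desmosomal plaque, fell to 207, 218 and 221 CPM with siUPF1, against 820, 918 and 890 CPM with siNT (-2.02, SE 0.10, adjusted p = 9.4e-18), with -2.13 in CLIP. The siUPF1 libraries agreed more closely with each other in DSP than in PRDX3, where the third lay above the other two.

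The lower genes included 3 of the PEA3 group of ETS transcription factors, which act downstream of growth factor receptors. ETV5 fell to 2.92, 4.13 and 6.21 CPM with siUPF1, against 19.7, 23.3 and 26.9 CPM with siNT (-2.44, SE 0.23). ETV4 fell to 1.27, 2.16 and 4.25 CPM with siUPF1, against 9.16, 11.2 and 14.5 CPM with siNT (-2.26, SE 0.34). ETV1 fell to 3.61, 4.59 and 3.22 CPM with siUPF1, against 13.9, 15.5 and 13.9 CPM with siNT (-1.92, SE 0.23). In all 3 genes every siUPF1 library lay below every siNT library, as the rule for naming required. Exons of ETV5 and ETV4 overlap those of other genes.

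MSX1, a homeobox repressor of differentiation, fell to 4.72, 4.87 and 7.71 CPM with siUPF1, against 28.7, 27.4 and 35.1 CPM with siNT (-2.42, SE 0.19). LOX, the lysyl oxidase that cross-links collagen, fell to 3.66, 3.70 and 4.44 CPM with siUPF1, against 17.2, 18.8 and 22.7 CPM with siNT (-2.32, SE 0.17). FADS2, a desaturase that acts on polyunsaturated fatty acids, fell to 12.5, 12.1 and 16.5 CPM with siUPF1, against 52.2, 56.4 and 55.8 CPM with siNT (-2.01, SE 0.14). Exons of LOX and FADS2 overlap those of neighbouring genes. The rest were the imine deaminase HRSP12 (-2.42), the microtubule regulator STMN3 (-2.32), the glycosyltransferase MGAT3 (-2.21), the SNARE regulator CPLX1 (-2.13), the receptor NOTCH3 (-1.99) and KRCC1 (-1.96).

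**Figure D2:**
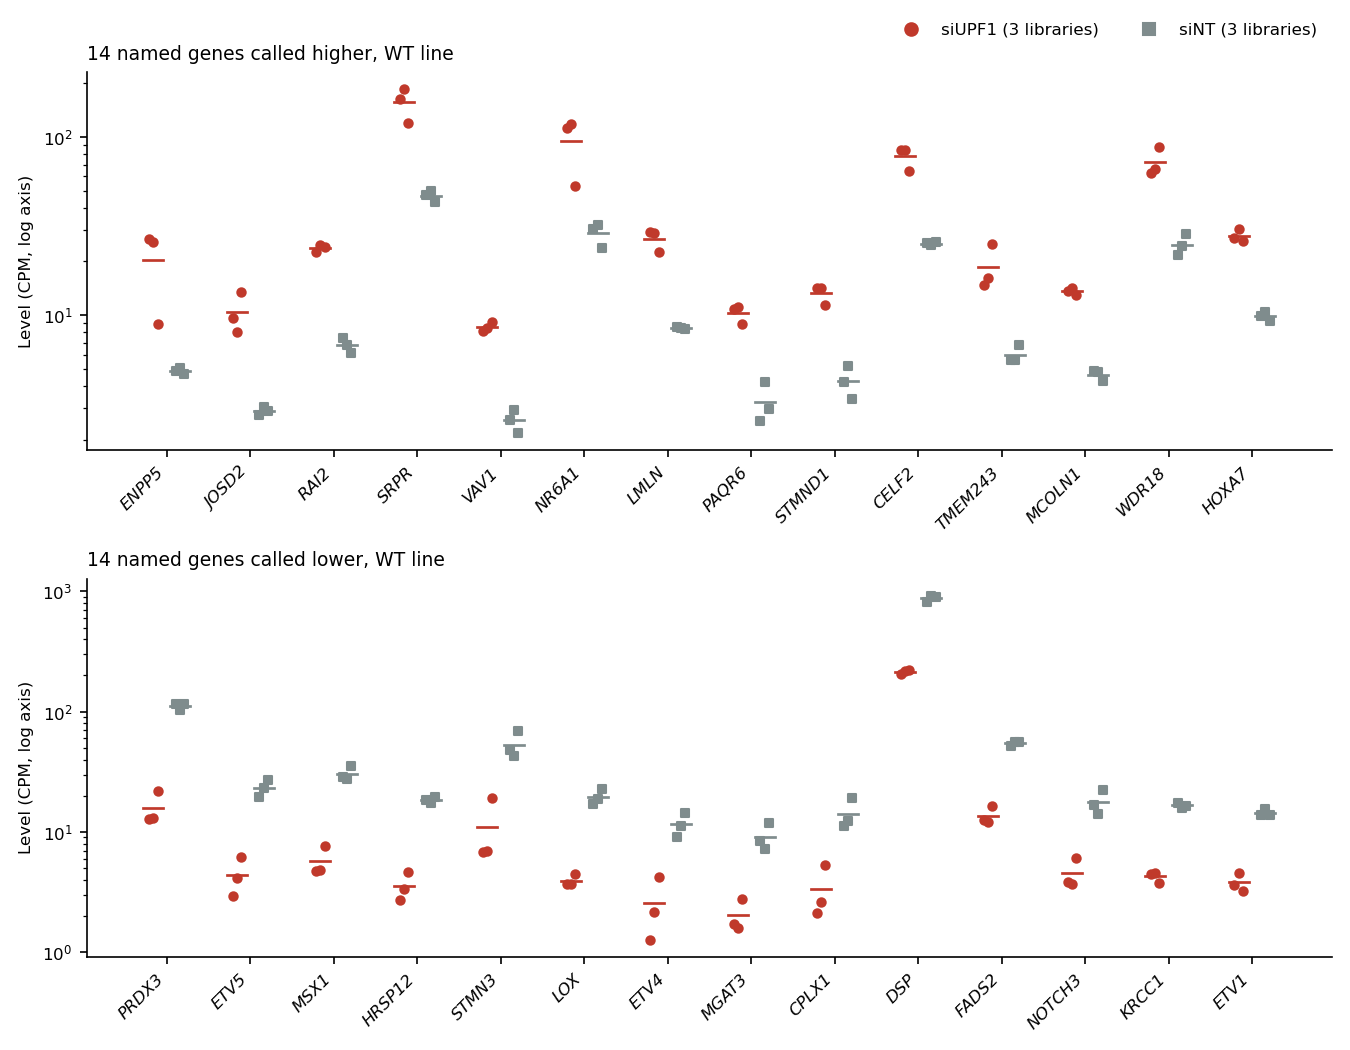
Level in CPM on a log axis of the 14 higher (top) and 14 lower (bottom) named genes in each WT library, with siUPF1 libraries as circles, siNT libraries as squares and group means as bars. The 28 genes were chosen so that no siUPF1 library overlaps a siNT library. The 3 ENPP5 values with siUPF1 spread from 8.87 to 26.7 CPM.

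The gene lists that follow are set beside the 14% of all genes called higher and the 13.3% called lower. These shares include weakly expressed genes, so they are a low base for lists of well expressed ones. When the fit was limited to the 11924 genes averaging 5 CPM or more, 2229 were called higher and 1983 lower. Of 12 reference genes, described below, 5 were called higher and 3 lower, with a median log2 fold change of 0.23. Whether a list moved more than well expressed genes at large was not tested. In the lysosome and autophagy list, 19 of 29 tested members were called higher and 0 lower, with a median log2 fold change of 0.39 beside 0.01 over all genes. Beside MCOLN1, GLA, the galactosidase deficient in Fabry disease, reached 141, 138 and 132 CPM with siUPF1, against 61.7, 61.3 and 69.5 CPM with siNT (1.09, SE 0.08). CTSA, a lysosomal carboxypeptidase, had 0.98 (SE 0.15) and the protease CTSD 0.81 (SE 0.11). The autophagy scramblase ATG9A had 0.82 (SE 0.09), the proton pump subunit ATP6V0D1 0.77 (SE 0.11) and the membrane protein LAMP1 0.57 (SE 0.09). TFEB and TFE3, transcription factors of lysosomal genes, had 0.14 (SE 0.19, adjusted p = 0.64) and 0.19 (SE 0.10, adjusted p = 0.18). The list had 19 called higher and 2 lower in CLIP, and 11 members were called higher in WT and in all 7 other lines.

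In the list of ER chaperones and the unfolded protein response, 15 of 30 were called higher and 0 lower, with a median of 0.26. HYOU1, an ER chaperone of the HSP110 family, reached 288, 304 and 324 CPM with siUPF1, against 147, 178 and 144 CPM with siNT (0.97, SE 0.11, adjusted p = 1.3e-08). SYVN1, the ubiquitin ligase of ER-associated degradation, reached 25.2, 26.8 and 24.6 CPM with siUPF1, against 16, 18.5 and 15 CPM with siNT (0.63, SE 0.10). The other called members changed less: SDF2L1 had 0.62, the oxidase ERO1L 0.56, CRELD2 0.53, the transcription factor XBP1 0.36 and the chaperone HSPA5 0.31 (adjusted p = 0.028). The call of CRELD2 was lost without the third siUPF1 library (0.31, adjusted p = 0.15), and that of HSPA5 without the first or the second siUPF1 or the third siNT library (0.24 to 0.28, adjusted p = 0.082 to 0.16). HSP90B1, the ER form of HSP90, had -0.03 (SE 0.10, adjusted p = 0.84), so the chaperones did not move as 1 block. CLIP had 15 members called higher and 1 lower. Exons of SYVN1, ERO1L and CRELD2 overlap those of other genes.

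The ER stress element, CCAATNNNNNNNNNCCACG read on both strands, is bound by ATF6 with NF-Y and by XBP1. Promoter windows from 250 bases before to 50 after the start were taken from RefSeq (GRCh38.p14), and 27 of the 30 list members matched one. The element was in 7 of these 27, against 27 of all 35116 windows (0.0769%). It was in 4 of 14 called higher and in 3 of 13 others, so in this list the letters did not set the called members apart. The 4 called carriers are shown with the ends of the element and the bases between them in capitals, each on the strand on which the element reads in this direction.
HSPA5, chr9:125241386-125241414: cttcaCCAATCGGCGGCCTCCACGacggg
XBP1, chr22:28800598-28800626: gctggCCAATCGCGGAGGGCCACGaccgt
CALR, chr19:12938379-12938407: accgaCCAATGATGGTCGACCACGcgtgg
CRELD2, chr22:49918549-49918577: atggcCCAATCCGAGTTCGCCACGagagg
The element lies on the strand of the gene in HSPA5 and XBP1, which are on the minus strand, and on the opposite strand in CALR and CRELD2, which are on the plus strand. CALR, a calcium-binding lectin chaperone, had 1132, 1248 and 1031 CPM with siUPF1, against 859, 887 and 832 CPM with siNT (0.40, SE 0.10).

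Further along the secretory pathway, 8 of 29 genes of ER to Golgi transport were called higher and 2 lower (median 0.14). CREB3L2, a membrane-bound transcription factor of secretory genes, reached 137, 145 and 129 CPM with siUPF1, against 51.5, 58.4 and 54.3 CPM with siNT (1.32, SE 0.08, adjusted p = 1.2e-15). The GTPase ARF4 had 0.92 (SE 0.17). COPA and COPB2, subunits of the retrograde coat, were the 2 called lower, at -0.33 and -0.25, COPB2 not without the third siUPF1 library (-0.15, adjusted p = 0.13). Of 31 genes of ER targeting and translocation, 7 were called higher, SRPR among them, and 1 lower, with a median of -0.01. A fit to the 6 WT libraries alone called 4 higher in place of 7.

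The lipid lists moved in both directions. Of 24 genes of cholesterol synthesis and uptake, 9 were called higher and 2 lower, with a median of 0.18. DHCR7, the last enzyme of cholesterol synthesis, reached 67.6, 71.9 and 54.8 CPM with siUPF1, against 39.6, 39.9 and 40.6 CPM with siNT (0.70, SE 0.08). SREBF2, the transcription factor of the pathway, had 0.50 (SE 0.11). INSIG1, which retains that factor in the ER, fell by 0.32 (adjusted p = 0.0053), and by 0.25 (adjusted p = 0.059) without the third siNT library. PMVK, a kinase of the mevalonate pathway, fell by 0.53, a call lost without the first or the second siUPF1 or the third siNT library (adjusted p = 0.051 to 0.15). CLIP had 6 members called higher and 12 lower, with a median of -0.29. The WT response was called above that of CLIP for 12 of the 24, but for 4 in the fit to the WT and CLIP libraries alone and for 17 with the replicate number as a block. The sterol element core CACCCCAC was in 1 of 18 matched promoter windows, that of SREBF2, against 981 of all 35116 (2.79%).

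Of 12 fatty acid genes, 4 were called higher and 4 lower. SREBF1, the transcription factor of fatty acid synthesis, reached 64.1, 65.6 and 75.1 CPM with siUPF1, against 25.8, 27.6 and 28.2 CPM with siNT (1.33, SE 0.15, adjusted p = 9.5e-09). FASN, the fatty acid synthase, had 0.84 (SE 0.17). The desaturase FADS1, next to FADS2 and with overlapping exons, fell to 20.4, 22.2 and 16.9 CPM with siUPF1, against 52.7, 56.8 and 55.3 CPM with siNT (-1.46, SE 0.09). The malic enzyme ME1 fell by 0.61.

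Of 22 genes known as output and feedback of the RAS-ERK pathway, 11 were called lower, 1 higher and 10 in neither direction, with a median of -0.37. SPRY4, a feedback inhibitor of receptor signalling, fell to 1.22, 0.93 and 0.89 CPM with siUPF1, against 4.77, 5.92 and 7.84 CPM with siNT (-2.58, SE 0.22, adjusted p = 8.2e-12). ETV5, ETV4 and ETV1 belong to the same list. FOSL1, a partner of JUN, had -1.53 (SE 0.20), and the ERK phosphatase DUSP6 fell to 4.51, 5.24 and 5.79 CPM with siUPF1, against 10.3, 11.2 and 12.5 CPM with siNT (-1.14, SE 0.12). The other called members were the receptor EPHA2 (-0.79), the inhibitors SPRED1 (-0.74) and SPRY2 (-0.30), and the phosphatases DUSP4 (-0.72) and DUSP5 (-0.30). DUSP4 missed the threshold without the first or the second siUPF1 or the third siNT library (adjusted p up to 0.078), DUSP5 without any single library except the third siNT library (up to 0.26), and SPRY2 without the first or the second siUPF1 library (up to 0.12). The exception was CCND1, cyclin D1, which rose to 149, 135 and 146 CPM with siUPF1, against 92.0, 90.6 and 92.9 CPM with siNT (0.64, SE 0.07, adjusted p = 1.5e-09). EGR1 and FOS, fast targets of the pathway, had -0.68 (SE 0.27, adjusted p = 0.056) and -0.43 (SE 0.27, adjusted p = 0.26). EGR1 was called with the replicate number as a block (-0.67, adjusted p = 4.4e-05), and without the second siUPF1 library (-0.88, adjusted p = 0.037) or the third siNT library (-0.90, adjusted p = 0.019). CLIP had 10 members called lower and 4 higher.

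Of 29 components of that pathway, 11 were called higher and 1 lower, with a median of 0.21. ERBB2, a receptor tyrosine kinase, reached 65.2, 67.4 and 79.4 CPM with siUPF1, against 39.3, 40.4 and 43.7 CPM with siNT (0.78, SE 0.12). The kinase-dead receptor ERBB3 was the 1 called lower, at 10.8, 12 and 14 CPM with siUPF1, against 20.7, 21.4 and 24.9 CPM with siNT (-0.87, SE 0.17). The scaffold KSR1 had 0.44 and the kinase ARAF 0.43. Of the 22 immediate early genes, 2 were called higher (ARC, and JUND at 0.58) and 3 lower (NR4A1, KLF10 and KLF4, at -0.67, -0.52 and -0.45), where CLIP had 12 higher. With the replicate number as a block these WT counts were 6 and 7. JUND was not called without the third siUPF1 (0.43, adjusted p = 0.14) or the third siNT library (0.56, adjusted p = 0.061), nor NR4A1 without the first siUPF1 library (-0.52, adjusted p = 0.056).

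Of 17 targets of YAP and SRF tested, 6 were called higher and 1 lower (median 0.27). SRF, the serum response factor, reached 129, 136 and 153 CPM with siUPF1, against 84.3, 86.9 and 83.7 CPM with siNT (0.71, SE 0.09, adjusted p = 1.1e-07). CYR61 (0.48) and CTGF (0.76), secreted matricellular proteins, were called higher, and ACTA2, smooth muscle actin, lower (-1.32, SE 0.16), its exons overlapping those of FAS. Of 16 p53 targets, 7 were called lower and 2 higher (median -0.28), with the stress protein TP53INP1 at -0.87 and the ribonucleotide reductase subunit RRM2B at -0.73. Leaving out either the second or the third WT siNT library left 4 called lower.

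ATF4 targets moved in both directions. Of 37 tested, 9 were called higher and 6 lower (median -0.01). The transcription factor JDP2 (1.09, SE 0.22), the leucine sensor SESN2 (0.64) and the serine hydroxymethyltransferase SHMT2 (0.58; its exons overlap those of NDUFA4L2) were called higher. The serine synthesis enzyme PSAT1 fell to 78.1, 71.8 and 82.0 CPM with siUPF1, against 152, 142 and 170 CPM with siNT (-1.0, SE 0.14). NARS (-0.73), WARS (-0.43), IARS (-0.38) and EPRS (-0.35), which charge tRNAs, were called lower, and MARS, of the same family, higher (0.25; adjusted p = 0.12 with no filter on low counts). CLIP had 23 called higher, and for 16 of the 37 the WT response was called below that of CLIP. That count was 7 in the fit to the WT and CLIP libraries alone and 22 with the replicate number as a block. It was 10 without the first WT siUPF1 or the first CLIP siNT library.

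Beside PRDX3, 9 of 27 antioxidant genes were called higher and 3 lower in all, PRDX3 among these 3. PRDX1, the cytosolic relative of PRDX3, reached 194, 194 and 183 CPM with siUPF1, against 110, 104 and 120 CPM with siNT (0.77, SE 0.11). PRDX2 fell to 184, 204 and 224 CPM with siUPF1, against 286, 277 and 291 CPM with siNT (-0.48, SE 0.13). The mitochondrial thioredoxin reductase TXNRD2 had 0.54 and the quinone reductase NQO1 0.78. Without the second WT siNT library 5 were called higher.

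The remaining lists were counted in the same way. Of 82 genes of the nuclear-encoded respiratory chain 6 were called higher and 4 lower. The count called higher was 3 without the third siUPF1 library and 9 without the first or the second. Of 37 proteasome subunits 3 were called higher and 1 lower, and of 13 mitochondrially encoded genes 0 in either direction, though 5 higher with no filter on low counts. Of 19 heat shock genes 2 were called higher, a count of 0 without the second siNT library. Of 22 interferon-stimulated genes 1 was called higher (STAT2, 0.92) and 4 lower, with 2 lower without the third siUPF1 or the third siNT library. Of 86 cytoplasmic ribosomal proteins 10 were called lower and 2 higher (median -0.09), and RPLP0 was one of the 2, at 1162, 1052 and 1342 CPM with siUPF1, against 536, 466 and 587 CPM with siNT (1.16, SE 0.11). The second siUPF1 or the third siNT library left out gave 6 ribosomal protein genes called lower, and the replicate number as a block gave 19. Of 59 replication-dependent histone genes 11 were called higher, a count that ran from 3 to 17 as each WT library was left out. Of 27 genes of DNA replication and mitosis 6 were called lower (22.2%) and 2 higher (median -0.09), with 0 or 1 higher as each library was left out. Ribosomal protein and histone genes have near-identical copies, so their counts are uncertain.

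Among genes often used as references, RPLP0 and GUSB (1.07, SE 0.10) were more than 2-fold higher with siUPF1. GAPDH was lower (-0.29, SE 0.06) and ACTB higher (0.31, SE 0.10), though not without the third siUPF1 (0.23, adjusted p = 0.14) or the first siNT library (0.29, adjusted p = 0.056). In all, 5 of 12 were called higher and 3 lower, with 2 higher without the first siNT library and 3 without the third siUPF1 or the second siNT library. Among the 35 exon junction and general decay factors 4 were called higher and 6 lower. CNOT7, a deadenylase, had -0.76 (SE 0.17), CNOT6 -0.66 and the deadenylase PARN -0.57. Of 13 genes of RNA interference, TNRC6C, a silencing partner of Argonaute, had -0.65 (SE 0.11) and AGO1 0.37 (SE 0.10; adjusted p = 0.053 in a fit to the WT libraries alone). Without the third WT siUPF1 library 4 of these 13 were called higher in place of 1. In the smaller lists, 3 of 9 TXNIP, arrestin-domain and TSC22 genes were called higher. Of 27 splicing regulators with poison exons 3 were called in each direction. As each library was left out, 1 to 3 of these regulators were called higher and 1 or 2 lower. Of 13 BMP and TGF-beta targets 1 was called higher and 3 lower, and of 10 WNT targets 2 in each direction.

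**Figure D3:**
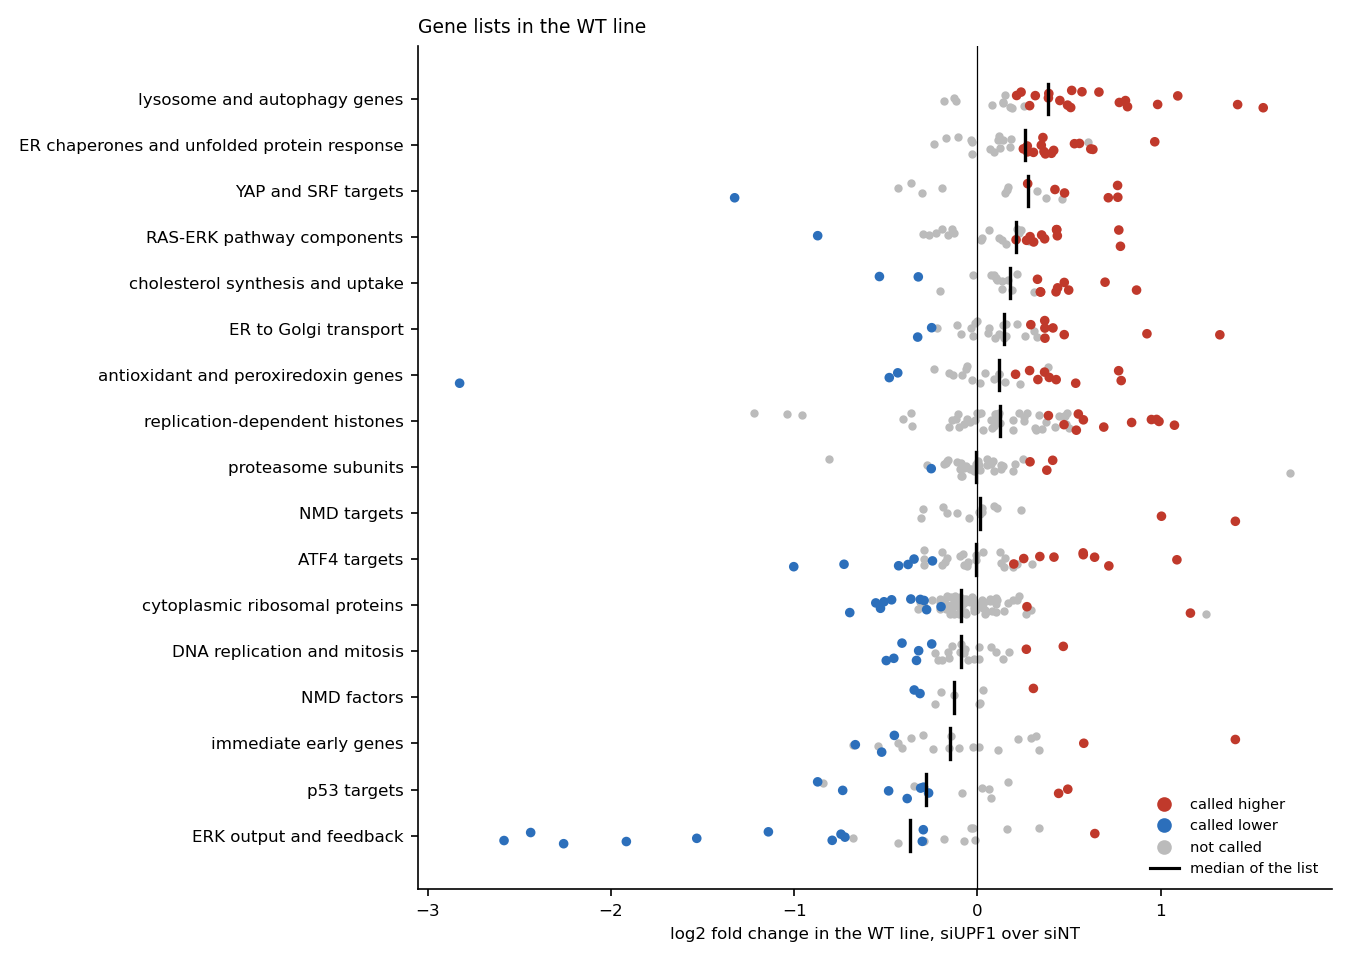
Log2 fold change in WT, siUPF1 over siNT, of each tested member of 17 gene lists (points; filled in colour where called, grey where not) with the median of the list (black bar). Lysosome and ER genes lie to the right with 19 of 29 and 15 of 30 called higher, ERK output genes to the left with 11 of 22 called lower, and NMD targets around 0.

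The difference between the WT and CLIP responses was called for 2267 genes, 722 with WT above CLIP and 1545 with WT below. Of the 5211 genes called in WT, the difference was not called for 4338 (83.2%), while WT moved further in its own direction in 416 (7.98%) and less far in 457 (8.77%). The count of differences depended on the fit. It was 3612 with the replicate number as a block and 522 in a fit to the WT and CLIP libraries alone. Without the first CLIP siUPF1 library it was 3815, without the third 3513 and without the second 1982, with 66.7% of the 2267 among them, and without the second WT siNT library 475 genes had WT above CLIP in place of 722. Counts over the lists in CLIP also moved without its second siUPF1 library. The ER chaperone list then had 20 called higher and 0 lower in CLIP, the cholesterol list 4 and 11, the ERK output list 2 and 10, and the immediate early genes 9 and 1.

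Genes with the largest differences among those called in WT, 6 in each direction, were also named, here without the condition that the siUPF1 and siNT libraries do not overlap. METTL7A, a methyltransferase of lipid droplets and the ER, was higher in WT and lower in CLIP. It stood at 43.3, 46.3 and 68.9 CPM with siUPF1, against 31.9, 33.4 and 38.0 CPM with siNT, in WT (0.61, SE 0.12), and at 17.1, 13.8 and 15.8 CPM with siUPF1, against 33.5, 34.3 and 33.9 CPM with siNT, in CLIP (-1.12). The difference was 1.73 (SE 0.18, adjusted p = 3.6e-09). CNTN1, a neural cell adhesion protein, had 0.47 in WT and -0.89 in CLIP. CCDC80, a matrix protein whose WT groups overlapped, had 0.37 in WT and -0.82 in CLIP. The protocadherin PCDH18 (-0.65 in WT, -2.12 in CLIP), the glutamate transporter SLC1A1 (-0.23 in WT, -1.43 in CLIP) and FADS2 (-2.01 in WT, -3.14 in CLIP) fell in both lines and less far in WT.

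On the other side, TSC22D3, a glucocorticoid-induced leucine zipper protein, was higher in both lines. It reached 345, 287 and 426 CPM with siUPF1, against 194, 169 and 247 CPM with siNT, in WT (0.79, SE 0.17), and had 2.54 in CLIP, a difference of -1.74 (SE 0.24, adjusted p = 2.0e-06). MAPK11, a kinase of the p38 family, had -1.84 in WT and -0.14 in CLIP, a difference of -1.70 (SE 0.31). PHF21B (-0.90 in WT, 0.86 in CLIP), TCHH (-0.65 in WT, 1.06 in CLIP), the ceramide synthase CERS1 (-0.50 in WT, 1.18 in CLIP) and PDRG1 (-0.37 in WT, 1.24 in CLIP) moved in opposite directions. The WT groups of CERS1 overlapped, and it shares exons with GDF1. The difference for TCHH missed the threshold in the fit to the WT and CLIP libraries alone (-1.73, adjusted p = 0.062).

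**Figure D4:**
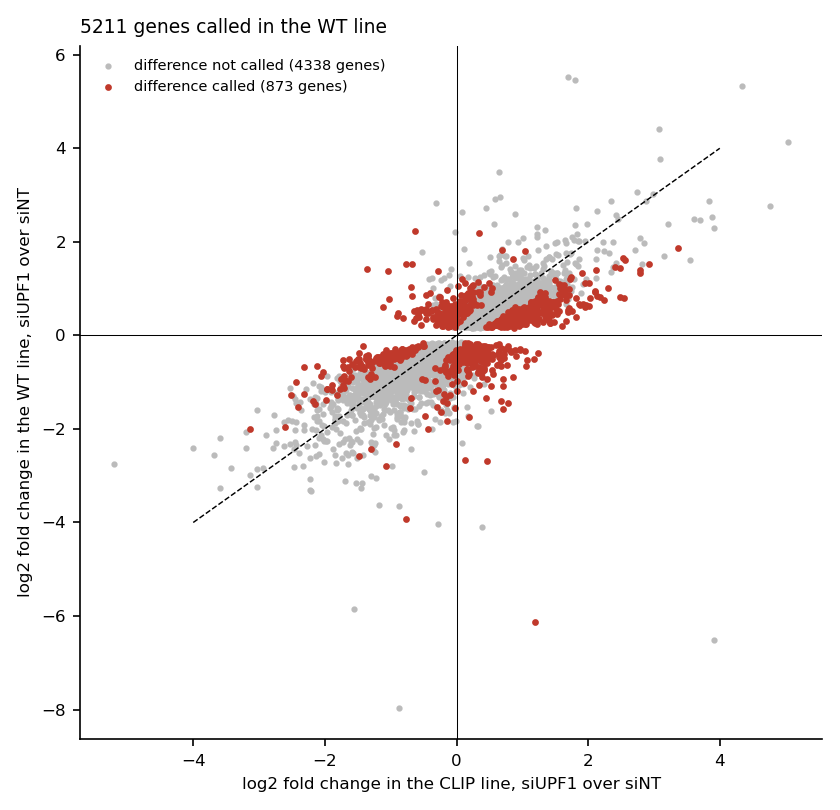
Log2 fold change, siUPF1 over siNT, of the 5211 genes called in WT, with the WT value on the vertical and the CLIP value on the horizontal axis and the line of equal response dashed. Genes whose difference was called (red) lie off the line, and for 4338 genes (grey) it was not called.

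Responses of WT and of the lines GA-KH and E797R were not told apart gene by gene. edgeR called 0 differences of WT minus GA-KH and 0 of WT minus E797R, with 315 and 359 genes at an unadjusted p under 0.05, and DESeq2 also called 0 in either. For 14059 genes (GA-KH) and 13993 genes (E797R) of 19129 the 95% interval of the difference lay within 1 log2 unit of 0. Smaller differences may have been missed in these genes, and larger ones too in the rest. With no filter on low counts 35 and 56 differences were called.

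The 3′ UTRs of the genes that moved were then described by the 7-letter words they contain, a search chosen after the values were seen and given with no test. GENCODE 29 (GRCh38) gave a 3′ UTR for 14047 tested genes, and 12536 of these with a mean of at least 1 CPM were used. Of 14545 words found in at least 200 genes, those with the lowest responses in WT, after UTR length and GC content were taken into account and with the mean response of the carriers weighted by their number, were AGAACAT and GAACATA, which overlap to AGAACATA. Those with the highest were AGCAACC and GCAACCA, which overlap to AGCAACCA. The words of the lowered genes held ranks 1 and 2 from the bottom, and those of the raised genes ranks 1 and 2 from the top, in each of the 8 lines. GATCATA was next, at rank 3, in all 8.

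Genes with AGAACATA in the 3′ UTR, 522 in number, had a median log2 fold change of -0.175 in WT, and 37.7% of them were called lower and 7.9% higher. Genes with only a 7-letter part of it (2061) had -0.066, with 24.4% lower, and genes with neither (9953) had 0.049, with 12.4% lower. The response fell with the number of sites of either 7-letter word. With 3 or more sites the median was -0.192 and 39.3% were called lower. With 2 it was -0.122, with 1 -0.071 and with 0 0.049. The difference between carriers of the 8-letter word and genes without either word was -0.188, -0.200 and -0.323 in the 3 siUPF1 libraries, each against the siNT mean. It was lowest in the third. The word was chosen by the responses of these same 3 libraries, so their agreement is no separate support. In each of 4 classes of UTR length, carriers of either 7-letter word had a lower median than the other genes. It ran from -0.191 against 0.054 among the shortest to -0.052 against 0.047 among the longest. These classes, and the counts of sites, reuse the values that chose the word.

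AGCAACCA, chosen from the same values, went with higher levels. Its 346 carriers had a median of 0.116, with 31.8% called higher, and 1187 genes with a 7-letter part had 0.107, with 30.2% higher, against 0.014 and 17.2% in the 11003 genes with neither. By number of sites there was no such order, with a median of 0.114 for 1 site, 0.055 for 2 and 0.167 for 3 or more, the last in 22 genes. The difference from genes without the word was 0.126, 0.128 and 0.080 in the 3 siUPF1 libraries. In coding sequence the words went with smaller shifts: genes with a lower word there and none in the 3′ UTR had a median of -0.012, against 0.064 in genes with none, and for the higher word these were 0.061 and 0.004. Genes whose 3′ UTR held words of both kinds (535) had 0.022, close to the 0.039 of the 8955 genes with none. Genes with a lower word only (2048) had -0.111 and genes with a higher word only (998) 0.170.

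Read from the called genes, 36.2% of those called lower carried a word of the lowered genes, against 19.3% of those not called, and 12.4% of those called higher did. Of those at least 2-fold lower, 29.9% carried a word of the lowered genes, a smaller share than of all called lower. The 8-letter word was in 10.4% of those at least 2-fold lower and in 10.2% of all called lower. Their median UTR lengths were 1329 and 1707 bases in the same order, and these shares were not adjusted for length. A word of the raised genes was in 19.8% of those called higher, against 10.4% of those not called, and in 32.3% of those at least 2-fold higher. Most called genes thus carried no such word.

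Among the named genes, 5 of the 14 lower ones (PRDX3, HRSP12, LOX, KRCC1 and ETV1) carried a word of the lowered genes, and 0 a word of the raised ones. Of the 14 higher ones, 7 (ENPP5, WDR18, RAI2, SRPR, LMLN, TMEM243 and HOXA7) carried a word of the raised genes, LMLN with 11 sites, and 2 (NR6A1 and CELF2) a word of the lowered ones. Over all 12536 genes used, 20.6% carried a word of the lowered genes and 12.2% one of the raised genes. The named genes and the words were chosen from the same responses, so these counts are descriptions only. Examples are shown in transcript direction with the word in capitals, so that the flanks can be compared. Those of the lower genes are as follows.
PRDX3, chr10:119168221-119168250, minus strand: ctagtttctacAGAACATAatttgcctcta
LOX, chr5:122065309-122065338, minus strand: tttccagtgccAGAACATgttaggtggaat
KRCC1, chr2:88027560-88027589, minus strand: ttacattttttGAACATAtagtgtaatttc
ETV1, chr7:13893006-13893035, minus strand: actgacagtgcAGAACATttttctcaaatc
Those of the higher genes are as follows.
ENPP5, chr6:46160482-46160511, minus strand: gcctgaatagaAGCAACCAggcaccatctc
WDR18, chr19:994384-994413, plus strand: ccatgcctcccAGCAACCAgggcccgcggg
SRPR, chr11:126263816-126263845, minus strand: tagagtatgtgAGCAACCtgtcttcagtgt
RAI2, chrX:17800198-17800227, minus strand: gagtaaataagAGCAACCtatttttcaagc

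AGAACATA also stands once in the coding sequence of UPF1, the gene that the siRNA targets, from position 908 of 3354 in exon 6.
UPF1, chr19:18852221-18852250, plus strand: ctaccagtaccAGAACATAttcgggcccct
It was in the coding sequence of 321 of the 12536 genes (2.56%). The 3′ UTR of UPF1 held none of the 4 words, and its coding sequence held no word of the raised genes. The siRNA sequences are not given in the sources used here, so the relation of these words to either siRNA was not tested. Of 2545 mature human miRNAs in RefSeq, 0 had a seed (bases 2 to 8) complementary to any of the 4 words.

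**Figure D5:**
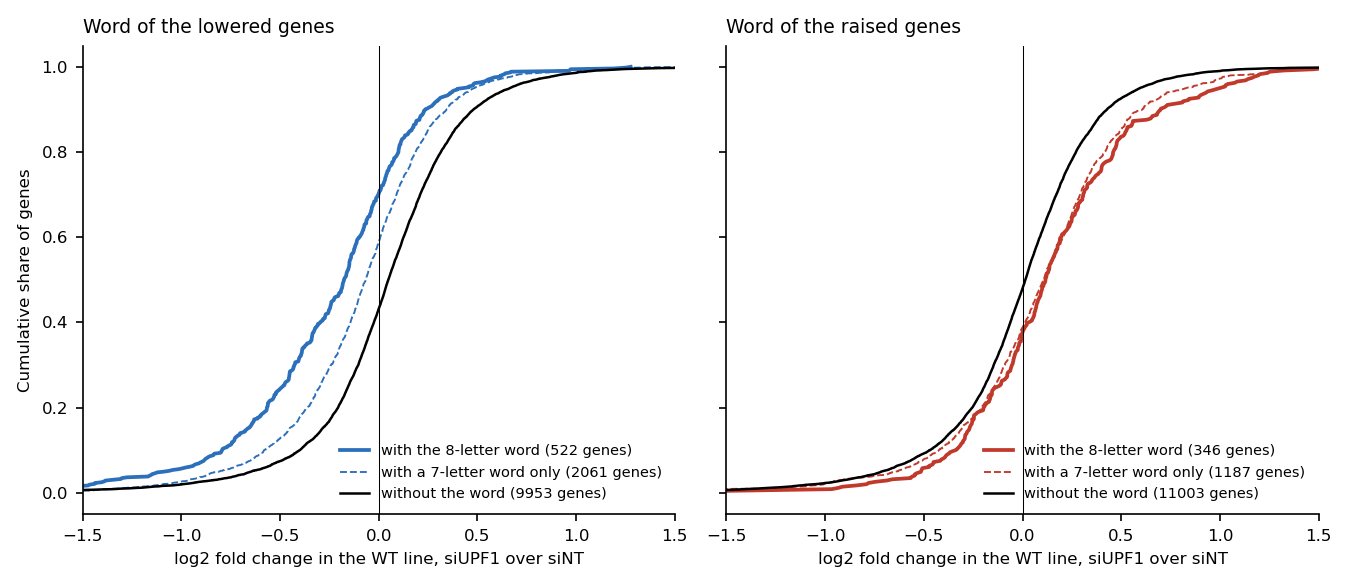
Cumulative share of genes by log2 fold change in WT, siUPF1 over siNT, for genes whose 3′ UTR holds the 8-letter word (thick line), only a 7-letter part (dashed) or neither (black), with AGAACATA at left and AGCAACCA at right. The 522 carriers of AGAACATA lie left of the other genes (median -0.175 against 0.049) and the 346 carriers of AGCAACCA right (0.116 against 0.014). Both words were chosen from these same values.

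Calls were also counted in the lists among genes with neither word, and some lists are given here. Over all 8955 genes without one, 19.0% were called higher and 12.5% lower. Of the 24 lysosome and autophagy genes without one, 15 were called higher, and of the 22 ER chaperone and unfolded protein response genes 11. Of the 12 ERK output genes 7 were called lower. The medians of these lists were 0.35, 0.31 and -0.70. In other lists no such gene was called, with 0 of 13 heat shock genes and 0 of 5 RNA interference genes. What part the words had in the calls of their carriers was not tested.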

How the data were processed

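Expected counts, not normalised, for 57820 genes in 48 libraries were deposited by the authors, and the submitters' processing notes name hg19, cutadapt, STAR, RSEM and DESeq2. Versions, annotation and strand setting are not given in the sources used here, so counts of overlapping, antisense and near-identical genes are uncertain. Groups follow the labels.

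After rounding to whole numbers, edgeR 4.0.16 in R 4.3.3 was used with TMM scaling. The 19129 genes kept by filterByExpr held 99.94% or more of each library's counts, and a quasi-likelihood model had 1 term for each of 16 groups, with 32 residual degrees of freedom. Differences between lines were contrasts of that model. Depth was 21.3 to 47.1 M counts per library, and CPM are counts relative to the TMM-scaled library total. Adjusted p-values are Benjamini-Hochberg over all genes tested. The SE of a log2 fold change is its size over the square root of F. Same-numbered siUPF1 and siNT libraries of WT deviated together from their group means, with correlations of 0.306, 0.363 and 0.403 over 11921 genes. Libraries with unlike numbers had -0.35 to 0.106. The numbers may thus pair the samples, which the labels do not state. The main model had no term for pairing, so its SEs and calls take no account of it. Alternatives were RLE scaling, DESeq2 1.42.0, no filter, a mean of at least 5 CPM, the lines compared only, a replicate block and leaving out each library. The CLIP counts without its second siUPF1 library were added after the data were seen.

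Gene lists and members were chosen with earlier results of these data known. Named were UPF1, the 14 genes each way with the largest called, non-overlapping change at a mean of at least 5 CPM, the 6 differences from CLIP each way with the largest size among genes called in WT, and up to 4 called members of each list. Further list members (HSP90B1, TFEB, TFE3, EGR1, FOS, ATF4, RP9P and SMG1 among them) were named after their values were seen, and some genes that the rule chose are not reported here. 3′ UTRs are the longest per gene in GENCODE 29, and promoters and miRNAs from RefSeq. Words were ranked by the mean residual log2 fold change of their carriers, times the square root of their number, from a regression on UTR length and GC content.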

Additional observations from a re-analysis of the deposited data

Results flagged for a closer look

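Each value below is a WT response minus a CLIP response (log2), both siUPF1 over siNT, whose difference was called in edgeR's quasi-likelihood test, among genes named here or in the lists. UPF1 itself differed by 2.04, as the WT total includes the transgene.

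WT lay above CLIP by 1.73 in METTL7A, 1.65 in IFIT1, 1.47 in PCDH18, 1.36 in CNTN1, 1.19 in SLC1A1, 1.19 in CCDC80 and 1.13 in FADS2. IFIT1, an interferon-stimulated gene, had -0.67 in WT and -2.32 in CLIP, so it was lower in both lines. Smaller differences of the same sign were 0.82 in HIST1H1D, 0.79 in STMND1, 0.77 in RAI2, 0.65 in KRCC1, 0.65 in LGR5, 0.44 in SNHG16 and 0.43 in DHCR7. RAI2 had 1.81 in WT and 1.04 in CLIP, and STMND1 1.64 and 0.85 in the same order.

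WT lay below CLIP, with differences of -1.75 in PHF21B, -1.74 in TSC22D3, -1.71 in TCHH, -1.70 in MAPK11, -1.68 in CERS1 and -1.61 in PDRG1. From the list that holds TSC22D3, ARRDC4 (-1.39) and TXNIP (-1.36), an inhibitor of thioredoxin, were also below. Among NMD factors and substrates the differences were -1.38 in ARC, -1.30 in BAG1, -1.27 in SMG5, -1.18 in SMG9, -0.84 in SNHG17 and -0.34 in UPF3A. PLK3 (-1.14) and IRF9 (-1.17) had opposite signs in WT and CLIP, with -0.48 and -0.77 in WT and 0.65 and 0.39 in CLIP. The WT call of PLK3 was lost without the first or the second siUPF1 or the second siNT library (adjusted p = 0.085 to 0.18). It was also lost in a fit to the WT libraries alone (-0.50, adjusted p = 0.15). ETV5 (-1.14) and SPRY4 (-1.10), outputs of ERK signalling, were lower in both lines and fell further in WT. PAQR6 (-0.87) and GLA (-0.47) were higher in both lines and rose less far in WT.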

How the results depend on the processing

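No named gene's called value and no UTR word difference changed direction under any alternative run. The genes named by size were chosen for large changes without overlap, so leaving out a library could hardly reverse them. The words were chosen as extremes of the same WT responses, so their steady direction is no separate support. The median changed sign in 9 of 31 lists, in 26 of 372 values, all in lists whose median lay within 0.0542 of 0, with values of -0.131 to 0.0796 after the change. The count of genes called in WT ran from 4212 to 6308 over RLE, DESeq2, no filter, a mean of at least 5 CPM, the replicate block and the WT libraries alone, against 5211, and from 4257 to 4808 as each WT library was left out. The fits kept 75.4 to 98.9% of the 5211 calls, and leaving out a library 79.4 to 82%. The replicate block, in which same-numbered libraries of a line are paired, called 6308 genes in WT. It raised the differences of WT minus CLIP to 3612 from 2267, with 1491 above CLIP in place of 722. The WT and CLIP libraries alone gave 522 differences, 97 above and 425 below. Leaving out single libraries gave 1731 to 3815 differences, 475 to 1544 above and 1230 to 2271 below. With no filter on low counts, WT minus GA-KH had 35 calls (21 above, 14 below) and WT minus E797R 56 (29 above, 27 below), against 0. The causes of these shifts were not tested.

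Of the values of genes chosen by the rule or named, 98 of 1074 with a library left out and 34 of 1063 under other alternatives lost the call, and 2 and 4 gained one (all of EGR1). The difference for TCHH missed the threshold in the fit to the WT and CLIP libraries alone. Of the list medians, 15 of 186 and 3 of 186 moved by more than 1 SD over the siUPF1 libraries. The difference for carriers of a lower word, median against genes without it, was -0.224 (-0.25 to -0.194 with a library left out), and for a higher word 0.102 (0.0828 to 0.131, the last without the third siUPF1 library). Depth limits genes of a few CPM, such as SPRY4 and FOSL1. Only 3 libraries a group were sequenced.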
